A study of Mus musculus with 6 samples.

Results

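The 9 genes described here encode the enzymes that write and erase methylation of cytosine in DNA, together with the factors that guide them. They were chosen by name and by no rule on their values, though with earlier results of these data known. They are Dnmt1, Dnmt3a, Dnmt3b, Uhrf1, Uhrf2, Tet1, Tet2, Tet3 and Tdg, and all 9 were found among the 46963 gene names of the count table. RNA of CD43- splenic B-cells, which are splenocytes depleted of CD43-bearing cells such as T-cells and activated or plasma cells, was sequenced in 3 genotypes and 2 culture states. The genotypes were wt mice, Eμ-deficient mice, which lack the Eμ enhancer and its flanking matrix attachment regions at the 5′ side of the IgH constant genes, and 3′RR-deficient mice, which lack the 3′ regulatory region behind those genes. All were young adult mice of both sexes on a 129 background. Each mouse carries its deletion in every cell and not in B-cells alone. The deleted elements are enhancers and not genes, so that these counts hold no direct check of the deletions.

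Resting cells received no stimulus. LPS-stimulated cells were grown for 2 days with 5 μg per ml lipopolysaccharide (LPS), a bacterial surface glycolipid that drives B-cells into division and toward antibody secretion. The labels describe the resting cells as cultured for the same time in medium alone, whereas the methods describe them as taken before stimulation, and a protocol text gives the LPS as 5 mg per ml. Each genotype and state has 1 library, 6 in all, made from 2 pooled mice per the labels. The methods and a legend describe more mice and more pools or experiments per genotype than the table has columns, so that what a column stands for is not settled. The methods take cells of the same mice before and after stimulation, which ties the resting and LPS libraries of a genotype to the same animals. Differences between genotypes within a state thus have no replicate check, and p-values from models over the 6 libraries measure only their departure from additive effects of genotype and state.

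In mammals, Dnmt1 copies methylation onto the new DNA strand at replication, guided by Uhrf1, which binds hemimethylated CpG sites. Dnmt3a and Dnmt3b set methylation on unmethylated CpG sites. The Tet enzymes oxidise 5-methylcytosine, and Tdg excises the most oxidised forms so that base excision repair can put back an unmodified cytosine. Methylation patterns change as activated B-cells divide and become plasma cells, and resting splenic B-cells hardly divide.

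Library totals over genes were 9111974 to 21998587 counts, and levels are given as CPM, counts relative to a common library size scaled by edgeR's TMM method. The 3′RR-deficient and wt LPS libraries differed most from each other. Over 35 spike-in RNAs of fixed composition their log2 ratios had an SD of 1.27. For the other 3 pairs of a deficient and a wt library the SD was 0.16 to 0.48. The 3′RR-deficient to wt ratios after LPS had a median of -0.83 in the 10% of genes lowest in GC content and of 0.82 in the 10% highest. Between the LPS and resting libraries of a genotype the spike-in SD was 0.78 in wt, 0.63 in 3′RR-deficient and 0.135 in Eμ-deficient B-cells. The LPS to resting medians of the same GC groups were 0.47 and -0.72 in wt, and -0.50 and 0.07 in 3′RR-deficient B-cells. The 6 B-cell markers, among them Cd79a, Cd79b, Ms4a1, Cd22 and Pax5, summed to between 1688 and 3036 CPM in every library. Markers of other cells moved with the culture state. All 6 T-cell, all 6 myeloid and all 6 erythroid markers passed the test as lower after LPS. Their summed levels went from 15.1 to 32.5 CPM down to 0.813 to 4.12 CPM for T-cells, from 148.7 to 361.0 CPM down to 21.2 to 33.2 CPM for myeloid cells, and from 3354 to 20140 CPM down to 52.9 to 670.3 CPM for erythroid cells. Among the markers at 0 in the wt LPS library were Cd3e, Cd8a and S100a9, and Cd8a was also at 0 in the 3′RR-deficient LPS library. The highest T-cell, myeloid and erythroid sums were those of the resting Eμ-deficient library. Its T-cell sum was mostly Cd4, at 24.2 CPM against 9.08 in wt and 9.19 in 3′RR-deficient B-cells. Cd3d and Trac were also highest there, but Cd3e, Cd3g and Cd8a in the resting 3′RR-deficient library. The 5 plasma cell markers summed to 2232 CPM in the resting Eμ-deficient library, against 546.3 and 590.9 CPM in the other resting libraries. Jchain alone was at 1734 CPM, against 113.1 in wt and 170.6 in 3′RR-deficient B-cells. Sdc1, Xbp1 and Prdm1 were also highest there, and Irf4 was at 366.2 against 372.2 and 364.4 CPM. Of the 5 plasma cell markers, Xbp1 and Prdm1 rose after LPS, and of the B-cell markers Cd22 fell. In bulk RNA, fewer cells of a type and less RNA per cell cannot be told apart.

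Letters of binding sites for E2F factors, which control many genes of DNA replication, were looked for in the promoter sequences of the 9 genes, since Dnmt1 and Uhrf1 act at replication. The windows were those of RefSeq for GRCm38.p6, 300 bases around each annotated start, and all 9 genes had at least 1 of them, 14 windows in all. The letters searched were TTTCGCGC and TTTGGCGC, on both strands. They occurred in 0.813% of all 32851 windows, or in a window of 0.929% of 27025 genes. Among the 9 genes only Dnmt1 and Uhrf1 held them, with 3 matches that did not overlap each other. They are shown 5′ to 3′ on the strand of the gene, with the searched letters in capitals.
Uhrf1, chr17:56304117-56304146, plus strand, match starting 185 bases before the annotated start: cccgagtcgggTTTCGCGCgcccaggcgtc
Dnmt1, chr9:20952824-20952853, minus strand, match on the other strand starting 219 bases before the annotated start: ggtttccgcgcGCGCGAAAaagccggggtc
Dnmt1, chr9:20952574-20952601, minus strand, match starting 34 bases into the transcript: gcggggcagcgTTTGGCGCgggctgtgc
The window of Uhrf1 that held the letters was the downstream one of 2, and that of Dnmt1 the downstream one of 3. Both windows had 33 CpG, more than 91.4% of all windows, whose median was 7. The searched letters contain CG themselves, and their share above is over windows of any CpG content. The richest in CpG among the 9 genes were the window of Tet2 with 57 and those of Dnmt3a with up to 47. Of 10 S phase genes with a window, 5 also held the letters. A match describes the letters only and is not a measured binding site.

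**Figure D1:**
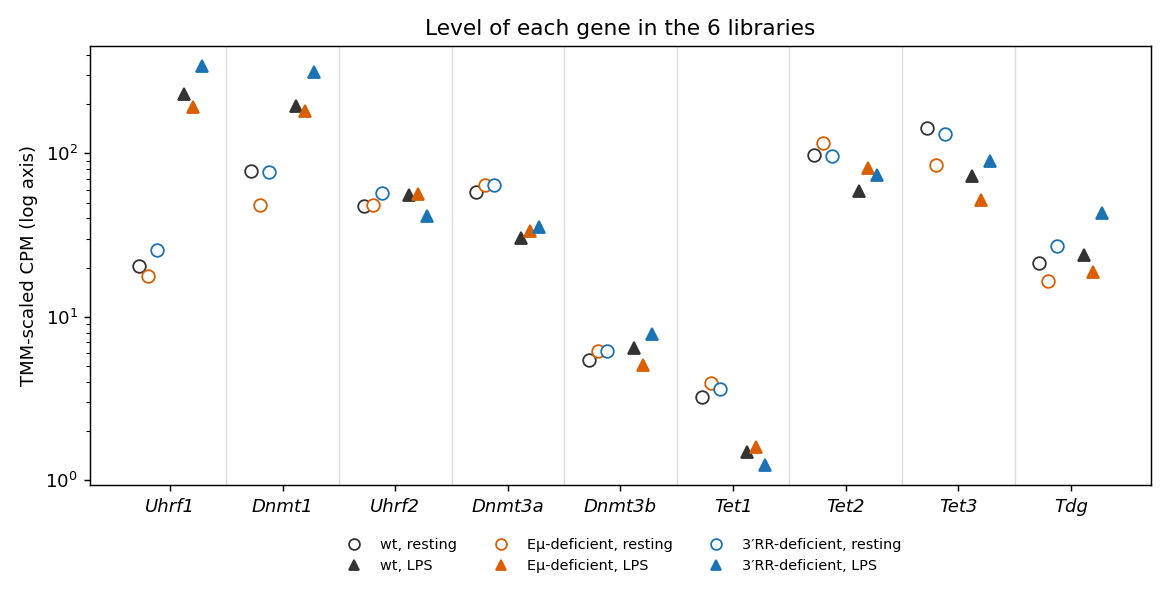
Level of each of the 9 genes in TMM-scaled CPM (log axis) in the 6 libraries, with open circles for resting and filled triangles for LPS-stimulated B-cells, and a color for each genotype; each point is 1 library. Uhrf1 and Dnmt1 sit higher in all 3 LPS libraries, Dnmt3a, Tet1 and Tet2 sit lower in all 3, and the states overlap for the other 4 genes.

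Uhrf1 and Dnmt1, the pair that maintains methylation at replication, were the 2 of the 9 genes that rose after LPS, while Dnmt3a, Tet1 and Tet3 fell. The quasi-likelihood model of edgeR called 2 of 9 higher, where it called 19.7% of the 14600 genes tested, and 3 of 9 lower, where it called 21.1%. Dnmt1 and Uhrf1 had all 3 LPS libraries above all 3 resting libraries, as did 25.0% of genes tested, and Dnmt3a, Tet1 and Tet2 had all 3 below, as did 27.3%. For both directions the share of the 9 genes is near that of all genes. The median of the 9 log2 changes was -0.02, beside -0.07 for all genes tested. Past 2-fold within a genotype were 3 of the 9 genes each time, namely Uhrf1, Dnmt1 and Tet1, where 46.7% of genes tested were past it in wt, 36.9% in Eμ-deficient and 39.6% in 3′RR-deficient B-cells.

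Uhrf1 (ENSMUSG00000001228, chr17:56303321-56323486, plus strand) recruits Dnmt1 to replicated DNA. It was at 20.5 CPM in the wt, 17.8 CPM in the Eμ-deficient and 25.7 CPM in the 3′RR-deficient resting library. After LPS it was at 230.0, 193.2 and 342.9 CPM, respectively, from 4812, 2063 and 3053 counts. The lowest LPS library was thus far above the highest resting library. The model gave a log2 change of 3.56 (SE 0.26, adjusted p = 6.7e-05), that is 11.8-fold higher, the largest change of the 9 genes. Within the genotypes the log2 ratio was 3.49 in wt (95% interval 3.34 to 3.65), 3.44 in Eμ-deficient (3.25 to 3.64) and 3.74 in 3′RR-deficient B-cells (3.61 to 3.88). The intervals of these ratios cover counting error only.

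Dnmt1 (ENSMUSG00000004099, chr9:20907209-20959888, minus strand) is the maintenance methyltransferase. Its resting levels were 78.1 CPM in wt, 48.4 CPM in Eμ-deficient and 77.4 CPM in 3′RR-deficient B-cells. Its LPS levels were 195.1, 181.1 and 314.6 CPM. The states did not overlap. The change was 3.36-fold (log2 1.75, SE 0.26, adjusted p = 0.001), smaller than that of Uhrf1. The log2 ratio was 1.32 in wt (1.23 to 1.41), below those of 1.91 (1.78 to 2.04) in Eμ-deficient and 2.02 (1.93 to 2.11) in 3′RR-deficient B-cells. The difference between genotypes was not tested. With the trend of each library on GC content removed, these ratios were 1.72, 1.86 and 1.90. Both Uhrf1 and Dnmt1 were called in all 14 settings tried, with log2 changes of 3.45 to 3.71 and 1.60 to 2.02.

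The factors that work with this pair split. Of 8 maintenance partners, 4 rose, beside 19.7% of all genes tested, and none fell, beside 21.1%, with a median log2 change of 1.07, beside -0.07 for all genes. Those that rose were Hells, the remodeller that opens nucleosomal DNA to methylation (log2 change 3.52, adjusted p = 2.5e-04), its partner Cdca7 (2.91, adjusted p = 1.0e-04), Lig1, which joins Okazaki fragments and binds Uhrf1 (2.81, adjusted p = 8.2e-05), and Pcna, the replication clamp that binds Dnmt1 (1.66, adjusted p = 0.002). Those that did not pass were the deubiquitinase Usp7 (-0.12), Dmap1 (0.31), the acetyltransferase Kat5 (-0.44) and the deacetylase Hdac1 (0.48). All 12 S phase and division genes, such as Mcm5 (2.71), Mki67 (2.77) and Rrm2 (4.17), rose, with a median of 2.79. Uhrf1 lay above that median and Dnmt1 below the lowest of the 12, Mcm2 (2.14).

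Uhrf2 (ENSMUSG00000024817, chr19:30030513-30093722, plus strand), the close relative of Uhrf1, did not pass the test. It was at 47.6, 48.6 and 57.3 CPM in wt, Eμ-deficient and 3′RR-deficient resting B-cells, and at 55.4, 56.0 and 41.1 CPM after LPS. The states overlapped, and the library that was highest among the resting ones belonged to the genotype that was lowest after LPS. The log2 change was -0.02 (SE 0.24, adjusted p = 0.96). Per kb of exon, the ratio of Uhrf1 to Uhrf2 went from 0.738 to 0.903 in resting libraries to 6.96 to 16.8 in LPS libraries. The highest value was that of the 3′RR-deficient LPS library, and the other LPS libraries had 6.96 and 8.38.

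Dnmt3a (ENSMUSG00000020661, chr12:3806007-3914443, plus strand), a methyltransferase that acts without a methylated template, fell. Its resting levels of 58.1 CPM in wt, 64.2 CPM in Eμ-deficient and 63.9 CPM in 3′RR-deficient B-cells went to 30.5, 33.6 and 35.6 CPM after LPS. The levels differed little among genotypes within a state, and the states did not overlap. The change was 1.87-fold lower (log2 -0.90, SE 0.21, adjusted p = 0.009), and the ratios within genotypes were -0.93, -0.93 and -0.84. Without the Eμ-deficient genotype the log2 change was -0.80 with an adjusted p of 0.16. The adjusted p ranged from 0.002 to 0.16 over the 14 settings, 12 of which called it.

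Dnmt3b (ENSMUSG00000027478, chr2:153649450-153687730, plus strand), its relative best known from the early embryo, was low and did not pass the test. It had between 54 and 135 counts per library, that is 5.45, 6.21 and 6.17 CPM in wt, Eμ-deficient and 3′RR-deficient resting B-cells and 6.45, 5.06 and 7.86 CPM after LPS. The states overlapped and the log2 change was 0.11 (SE 0.29, adjusted p = 0.79). As a share of the summed Dnmt1, Dnmt3a and Dnmt3b levels per kb of exon, Dnmt1 went from 56.4% to 69.9% in resting libraries to 89.1% to 92.1% after LPS, and Dnmt3a from 23.1% to 33.2% to 4.62% to 7.34%. Dnmt3l, the cofactor of both Dnmt3 enzymes in germ cells, had 5 counts in the 6 libraries together and was not tested. Trdmt1, a family member that methylates tRNA, rose (log2 change 0.88, adjusted p = 0.044).

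**Figure D2:**
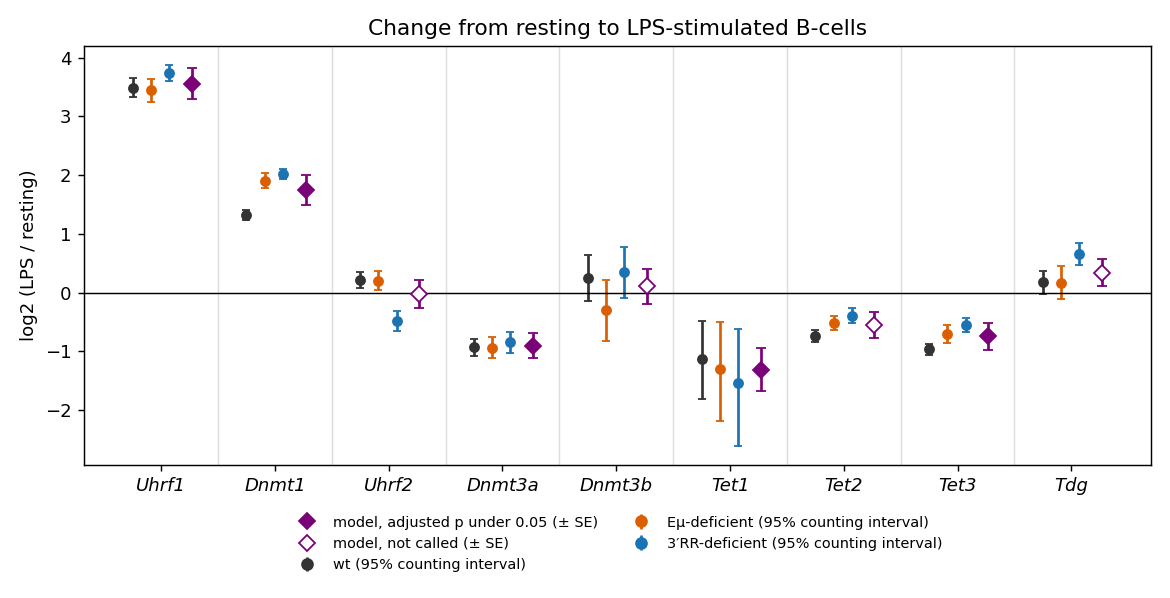
log2 ratio of the LPS to the resting library for each gene, with circles for each genotype and their 95% counting intervals, and diamonds for the model over the 6 libraries with its SE, filled where the adjusted p was under 0.05. Uhrf1 (3.56) and Dnmt1 (1.75) lie above 0 in each genotype, Dnmt3a and the 3 Tet genes below it, and Uhrf2 above 0 in 2 genotypes (in wt not with total count scaling) and below it in 3′RR-deficient B-cells.

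Of the 3 Tet genes, which encode the oxidising enzymes, Tet3 and Tet1 fell and Tet2 did not pass the test. Tet1 (ENSMUSG00000047146, chr10:62804570-62908996, minus strand) was the least abundant of the 9 genes. It was at 3.25, 3.94 and 3.60 CPM in wt, Eμ-deficient and 3′RR-deficient resting B-cells, from 59, 52 and 74 counts, and at 1.48, 1.59 and 1.24 CPM after LPS, from 31, 17 and 11 counts. All LPS libraries lay below all resting ones. The change was 2.48-fold lower (log2 -1.31, SE 0.36, adjusted p = 0.019). The ratios within genotypes had wide intervals, -1.13 in wt (-1.81 to -0.48), -1.31 in Eμ-deficient (-2.19 to -0.49) and -1.54 in 3′RR-deficient B-cells (-2.61 to -0.62). Without the 3′RR-deficient LPS library the change was -1.21 with an adjusted p of 0.067, in a range of 0.007 to 0.15 over the 14 settings, 10 of which called it.

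Tet2 (ENSMUSG00000040943, chr3:133463679-133545139, minus strand) was at 97.4, 116.0 and 96.2 CPM in wt, Eμ-deficient and 3′RR-deficient resting B-cells. After LPS it was at 58.6, 81.0 and 73.5 CPM. The states did not overlap, yet the modelled change, log2 -0.55, had an adjusted p of 0.079 (SE 0.22). It passed in 2 of 14 settings, with the GC trend removed (-0.57, adjusted p = 0.032) and with 10 counts required in all libraries (-0.65, adjusted p = 0.042), in a range of 0.032 to 0.64. The ratios within genotypes were -0.73, -0.52 and -0.39.

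Tet3 (ENSMUSG00000034832, chr6:83362373-83459084, minus strand) was at 142.1 CPM in wt, 84.5 CPM in Eμ-deficient and 130.8 CPM in 3′RR-deficient resting B-cells, and at 72.9, 51.9 and 89.3 CPM after LPS. The 3′RR-deficient LPS library was above the Eμ-deficient resting library, so that the states overlapped, while each genotype had less Tet3 after LPS. The change was 1.67-fold lower (log2 -0.74, SE 0.23, adjusted p = 0.030). It was called in 9 of 14 settings, with an adjusted p of 0.009 to 0.38. The change was smallest with the length trend removed, -0.26 (adjusted p = 0.38). Leaving out the 3′RR-deficient LPS library gave -0.83 (adjusted p = 0.078), leaving out the Eμ-deficient genotype -0.67 (adjusted p = 0.30), and leaving out the genotype term -0.74 (adjusted p = 0.075).

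Tdg (ENSMUSG00000034674, chr10:82629828-82650799, plus strand), the glycosylase that removes the oxidised base, did not pass the test. It was at 21.2, 16.7 and 27.3 CPM in wt, Eμ-deficient and 3′RR-deficient resting B-cells and at 23.9, 18.7 and 43.1 CPM after LPS. The states overlapped. The log2 change was 0.34 (SE 0.23, adjusted p = 0.27), and the ratio of the 3′RR-deficient libraries, 0.66 (0.47 to 0.85), was above those of wt (0.17, or -0.07 with total count scaling) and Eμ-deficient (0.17) B-cells. Its processed pseudogene Tdg-ps had at most 6 counts in a library, and the listed genes that overlap any of the 9 genes had at most 7.

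**Figure D3:**
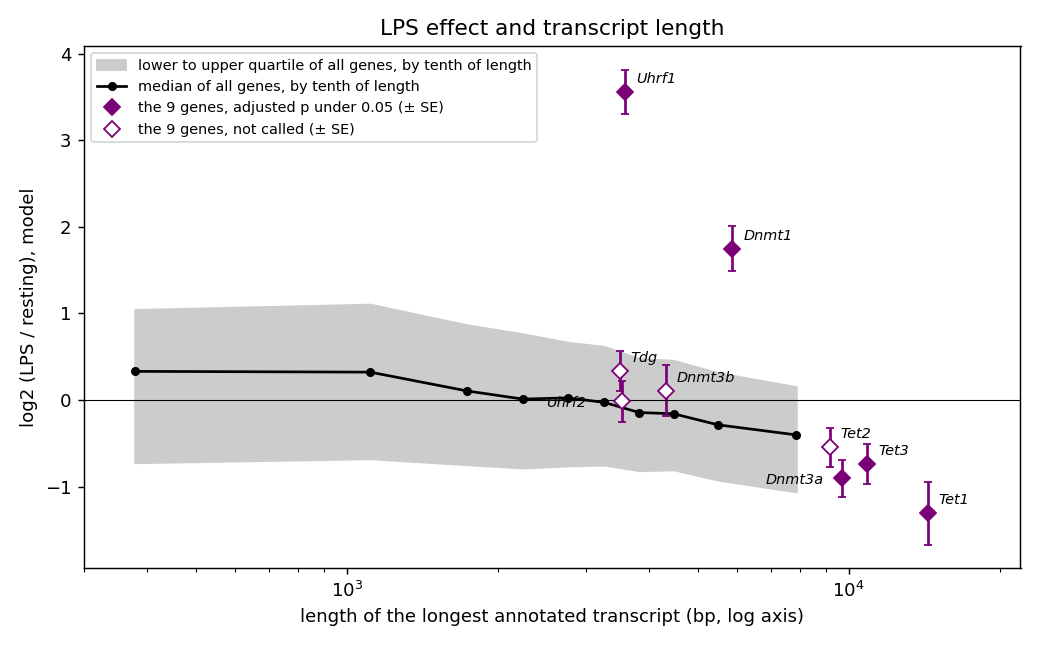
Modelled log2 change from resting to LPS-stimulated B-cells against the length of the longest annotated transcript (log axis) for the 9 genes with their SE, over the median and the quartiles of all genes in bins that each hold 10% of the genes by length. The median of all genes runs from 0.33 in the shortest bin to -0.40 in the longest, and Dnmt3a, Tet1, Tet2 and Tet3 all have transcripts longer than at least 97.2% of genes.

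The 4 genes with the lowest log2 changes after LPS, Dnmt3a and the 3 Tet genes, share long transcripts. The longest annotated transcript was 9685 bp for Dnmt3a, 14369 bp for Tet1, 9179 bp for Tet2 and 10904 bp for Tet3, and those of the other 5 genes were between 3502 and 5870 bp. Across all genes the LPS change fell with length, with medians of 0.33 in the 10% of genes with the shortest transcripts and -0.40 in the 10% with the longest. With the length trend of each library removed, none of the 9 genes was called lower, with log2 changes of -0.48 for Dnmt3a (adjusted p = 0.10), -0.71 for Tet1 (0.15), -0.26 for Tet3 (0.38) and -0.14 for Tet2 (0.64). Dnmt1 (2.02) and Uhrf1 (3.62) were still called higher. The fall of Dnmt3a, Tet1 and Tet3 also went together with that of all T-cell, myeloid and erythroid markers given above. The part of length or of other cells in the result was not tested.

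Per kb of exon, the order of levels in resting B-cells, by the median of the 3 libraries, was Dnmt1 (10.5 CPM per kb), Tet3 (7.84), Tet2 (5.77), Uhrf2 (5.66), Uhrf1 (4.80), Tdg (3.94), Dnmt3a (3.84), Dnmt3b (1.21) and Tet1 (0.233). Each neighbour in this order overlapped the next over the 3 libraries, except Dnmt3a with Dnmt3b and Dnmt3b with Tet1. Within each resting library Dnmt1 was above Tet3, Uhrf2 above Uhrf1 and Uhrf1 above Tdg, while the other overlapping pairs changed order. After LPS the order was Uhrf1 (54.0), Dnmt1 (26.4), Uhrf2 (6.44), Tdg (4.45), Tet3 (4.37), Tet2 (4.36), Dnmt3a (2.02), Dnmt3b (1.26) and Tet1 (0.096). Here Uhrf1 was clear of Dnmt1, and Dnmt1 of Uhrf2. From Uhrf2 to Tet2 each neighbour overlapped the next, and the last 3 genes were each clear of their neighbours. Of the overlapping pairs, Tdg was above Tet3 within each LPS library, and the others changed order. The summed level of the 3 Dnmt genes was 0.954 to 1.13 times that of the 3 Tet genes in resting libraries and 3.44 to 4.74 times after LPS. These levels divide by the union of all annotated exons, which for some genes is far longer than the longest transcript. It was 8590 against 3536 bp for Uhrf2, 16870 against 9179 bp for Tet2 and 16642 against 9685 bp for Dnmt3a. For Uhrf1 it was 4259 against 3586 bp. The order, the ratio of Uhrf1 to Uhrf2 and the shares within the Dnmt and Tet genes thus depend on the length used.

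Between genotypes, none of the 9 genes passed the test. Over both states the model called 0 of 9 for the 3′RR deletion, where it called 0.678% of all genes, and 0 of 9 for the Eμ deletion, where it called 1.16%. At an unadjusted p under 0.05 the main edgeR fit also gave 0 for either deletion. For the Eμ deletion edgeR gave 1 with total count scaling, DESeq2 size factors, no filter on low counts, or the GC or length trend removed. For the 3′RR deletion it gave 1 with the GC trend removed. The DESeq2 Wald test called 0 for either, with 0 for the 3′RR and 1 for the Eμ deletion at an unadjusted p under 0.05. In the main fit the nearest to the threshold was Tet3 for the Eμ deletion, 1.54-fold lower (log2 -0.62, SE 0.28, unadjusted p = 0.053, adjusted p = 0.59). Next was Tdg for the 3′RR deletion, 1.53-fold higher (log2 0.61, SE 0.28, unadjusted p = 0.057, adjusted p = 0.90). In simulated counts with 200 of 14600 genes changed, the model recovered 32% of 2-fold and 94% of 4-fold LPS changes. In the data it called 2883 genes higher and 3079 lower after LPS, so these shares do not give its recovery in the data. Recovery was not simulated for the genotypes.

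**Figure D4:**
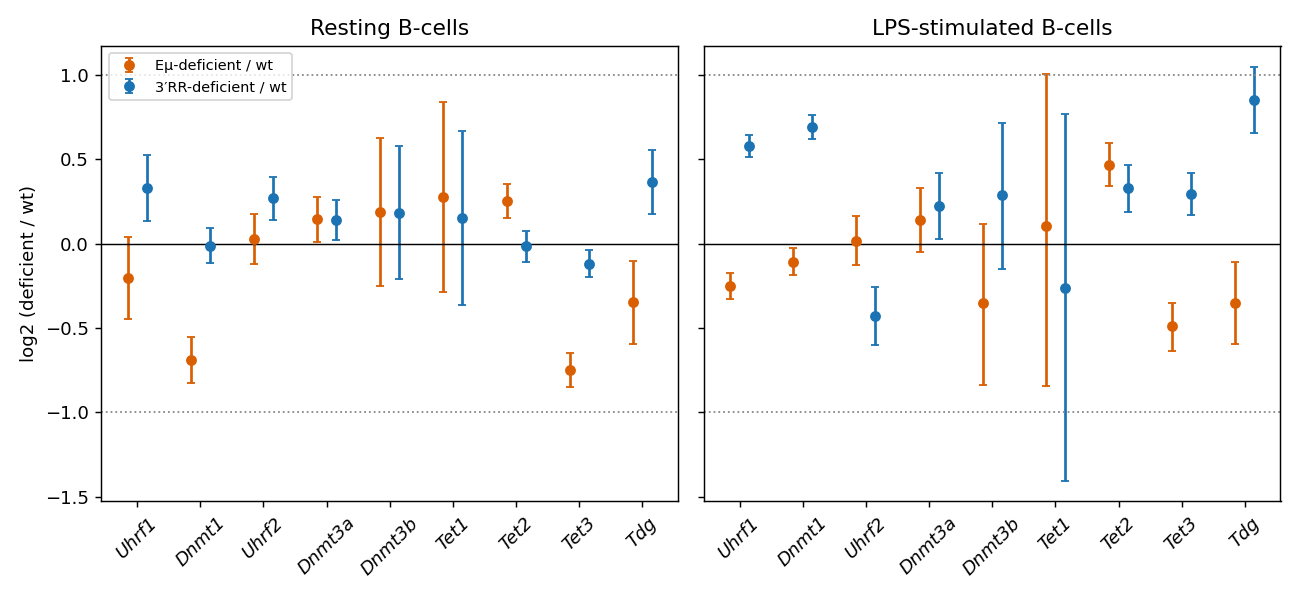
log2 ratio of each deficient library to the wt library of the same state for the 9 genes, with 95% counting intervals and dotted lines at 2-fold. All 36 ratios lie within 2-fold, with the highest 0.85 for Tdg and the lowest -0.75 for Tet3.

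Within a state, 0 of the 9 genes was past 2-fold in any of the 4 pairs of libraries. The share of all genes past 2-fold was 18.3% for Eμ-deficient and 9.33% for 3′RR-deficient against wt resting B-cells, and 12.5% and 26.6%, respectively, after LPS. In resting B-cells the largest ratios of the Eμ-deficient library to wt were those of Tet3 (-0.75, 95% interval -0.85 to -0.65) and Dnmt1 (-0.69, -0.83 to -0.56). That library also differed from wt along GC content, with medians of 0.46 in the lowest and -0.44 in the highest 10% of genes, and both genes have a GC content above that of at least 72.8% of genes. With the GC trend removed, Tet3 was at -0.50 and Dnmt1 at -0.42. The SD of the spike-in ratios of this pair was 0.48. In the resting 3′RR-deficient library the ratios to wt lay between -0.12 for Tet3 and 0.36 for Tdg, with a spike-in SD of 0.16.

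After LPS, the 3′RR-deficient library was above wt for Tdg (0.85, 0.66 to 1.05), Dnmt1 (0.69, 0.62 to 0.76) and Uhrf1 (0.58, 0.51 to 0.64) and below it for Uhrf2 (-0.43, -0.60 to -0.26). All are smaller than the SD of 1.27 of the spike-in ratios of these libraries. The ratios of all tested genes between these libraries had an SD of 0.987. Removing the GC trend took Dnmt1 to 0.22 and Uhrf1 to 0.13, and left Tdg at 0.86 and Uhrf2 at -0.36. The Eμ-deficient library after LPS lay between -0.49 for Tet3 and 0.47 for Tet2, with a spike-in SD of 0.44.

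The balance of Tet2 and Tet3 differed in the Eμ-deficient libraries in both states. This was seen in the values and not looked for by a rule. Of the summed levels of the 3 Tet genes per kb of exon, Tet2 made up 56.4% in resting and 59.9% in LPS-stimulated Eμ-deficient B-cells. In the other 4 libraries it made up 39.8% to 44.5%, and Tet3 the larger share, 54.7% to 58.7%. Tet1 made up 0.817% to 2.09%. Relative to wt, the log2 ratio of Tet2 minus that of Tet3 was 1.00 in resting and 0.96 in LPS-stimulated Eμ-deficient B-cells, and 0.61 and 1.13 with the GC trend removed. For the 3′RR-deficient libraries it was 0.10 and 0.03, but 0.71 after LPS with the GC trend removed. In each state the Eμ-deficient library also had the highest summed T-cell, myeloid, erythroid and plasma cell marker RNA. After LPS these sums were 4.12, 33.2, 670.3 and 1589 CPM. The other LPS libraries had at most 1.46, 28.2, 133.3 and 890.7 CPM, respectively. In the resting Eμ-deficient library Cd4 made up most of the T-cell sum and Jchain most of the plasma cell sum. The part of other cells in this balance was not tested.

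**Figure D5:**
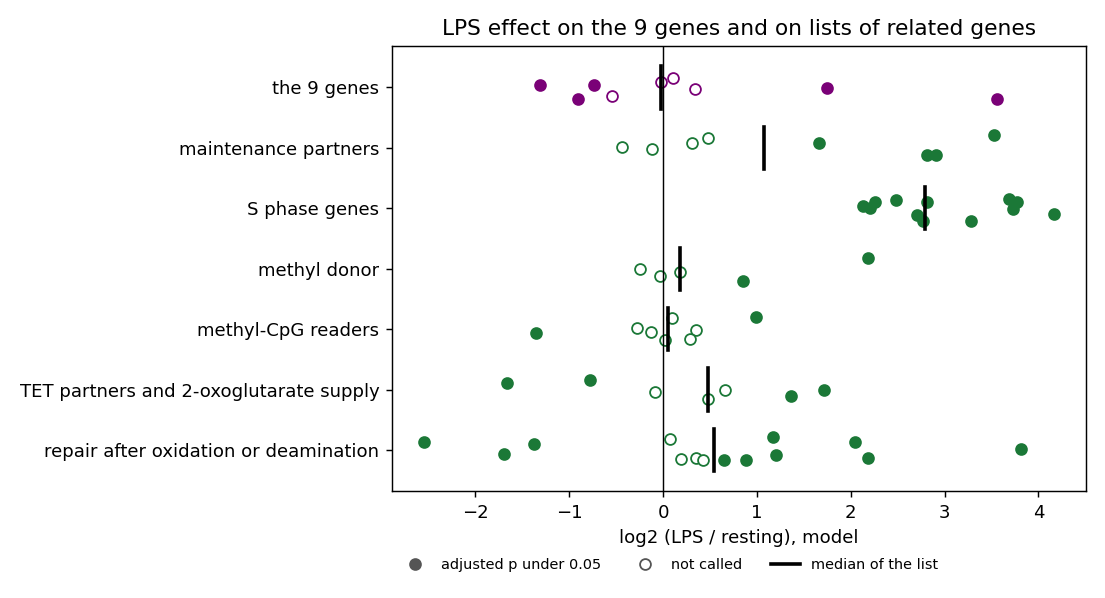
Modelled log2 change from resting to LPS-stimulated B-cells for the 9 genes and for 6 lists of genes around them, 1 point per gene, filled where the adjusted p was under 0.05, with a bar at the median of each list. All 12 S phase genes lie above 2, while the other lists hold genes on both sides of 0.

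The genes that feed, read and complete these reactions moved in both directions after LPS. The counts of each list stand beside 19.7% of all genes tested called higher and 21.1% called lower. Among 5 genes of the methyl donor pathway 2 rose, Ahcy, which clears S-adenosylhomocysteine (log2 change 2.18, adjusted p = 8.7e-04), and Mat2a, which makes S-adenosylmethionine (0.85, adjusted p = 0.024), and none fell. Among 8 readers of methylated CpG, Mbd3 rose (0.99, adjusted p = 0.024), a family member that binds methylated DNA poorly, and Zbtb4 fell (-1.35, adjusted p = 0.002). The median of the readers was 0.06, beside -0.07 for all genes.

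Of 14 tested genes of repair after oxidation or deamination, 7 rose (19.7% of all genes did) and 3 fell, about the 21.1% of all genes, with a median of 0.54. Among those that rose were the uracil glycosylase Ung (1.21, adjusted p = 0.005), the abasic site nuclease Apex1 (2.05, adjusted p = 3.1e-04) and Neil3 (2.19, adjusted p = 0.003). Those that fell were the glycosylase Neil1 (-2.55, adjusted p = 4.5e-04), Gadd45a (-1.37, adjusted p = 0.003) and Gadd45g (-1.70, adjusted p = 0.005), while Gadd45b, of the same stress-induced family, rose (1.17, adjusted p = 0.007). Mbd4, which is on the lists of readers and of repair, did not pass (0.35, adjusted p = 0.30). Neil2 had 15 counts in all and was not tested. Of 7 tested genes for partners of the Tet enzymes and for supply of their cosubstrate 2-oxoglutarate, 2 rose, among them Idh3a (1.71, adjusted p = 6.7e-04), and Cxxc5 (-1.67, adjusted p = 0.002) and D2hgdh (-0.78, adjusted p = 0.047) fell, both counts being near the 19.7% and 21.1% of all genes. In none of these lists was a gene called for either deletion.

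Among all genes tested, those closest in pattern to each of the 9 genes were found by the Pearson r of log2 CPM over the 6 libraries. For Uhrf1 they were Chaf1a, a chaperone subunit that loads histones at replication (r = 0.9995), and Baz1b (0.999). For Dnmt1 they were Eif3c (0.9994) and Pelp1 (0.9994). For the genes that fell they were Gm43267 (0.9993) and Slc8b1 (0.9988) with Dnmt3a, Ganc (0.9986) and H2-Eb2 (0.9984) with Tet1, and Zfp619 (0.9978) and Zfp608 (0.9935) with Tet3. For Tet2 they were Icos (0.9991), a receptor of activated T-cells that had at most 1.67 CPM, and Fcgr3 (0.9984), an Fc receptor of myeloid cells, both highest in the resting Eμ-deficient library. For Tdg they were Mtf1 (0.9924) and Ass1 (0.9922), for Uhrf2 Elk4 (0.9681) and Tmem19 (0.9622), and for Dnmt3b Mir1931 (0.9628), which had at most 1.69 CPM, and Gm10136 (0.9548). High values are common where a gene steps between the states: 1201 genes had an r above 0.95 with Uhrf1 and 4 with Dnmt3b.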

How the data were processed

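From stranded total RNA libraries read as pairs of 150 nt, the authors aligned reads to mm10 using STAR 2.4.0a and summed fragments per gene name by featureCounts (Subread 1.4.6-p1), where multi-mapping reads also counted. They deposited raw counts in 47055 rows, of which 92 are spike-in RNAs (4.75% to 7.10% of counts), left out of library sizes and tests. TMM scaling and the edgeR 4.0.16 quasi-likelihood test (R 4.3.3), with additive terms for genotype and state, covered the 14600 genes that reached 10 counts in 2 or more libraries. P-values were adjusted by Benjamini-Hochberg, and the threshold was 0.05. The SE of a log2 change was taken as its size divided by the square root of the F of the edgeR test. The residual has 2 degrees of freedom. Of the ratio of 2 libraries, the exact conditional binomial (Clopper-Pearson) 95% interval is given (scipy 1.17.1), an error of counting alone, because copies made by amplification are not separate molecules. Fold thresholds were 2-fold, and a library at or under 3 counts was set to 3. Levels per kb use the union of exons of GENCODE M21 (GRCm38), and length and GC content the longest transcript, known for 95.8% of tested genes. Named are the 9 genes, the lists around them, markers and the 2 genes nearest in pattern to each. Some genes of the lists are counted but not reported here by name. The 9 genes and the lists were chosen with earlier results of these data known. On simulated counts for 14600 genes, 200 of them changed, 5.26% of LPS calls were unchanged genes. Alternatives were other scalings, DESeq2 1.42.0, other filters on low counts, removal of GC or length trends, no genotype term, a prior count of 2, and leaving out libraries or genotypes.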

Additional observations from a re-analysis of the deposited data

Results flagged for a closer look

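Uhrf2 was the 1 gene of the 9 whose LPS ratios had opposite signs in different genotypes with counting intervals that left out 0. The scaled ratio was above 0 in wt (0.22) and Eμ-deficient (0.21) B-cells, from 866 to 1158 and from 642 to 598 raw counts, and below 0 in 3′RR-deficient B-cells (-0.48, 95% interval -0.65 to -0.31), from 1179 to 366 counts. The log2 ratio of wt minus that of 3′RR-deficient B-cells was 0.70, and that of Eμ-deficient minus 3′RR-deficient B-cells 0.68. Scaled by the total count, the ratio in wt was -0.03, so that its sign turns with the scaling, while those in Eμ-deficient (0.19) and 3′RR-deficient (-0.50) B-cells kept theirs. Each genotype has 1 library per state, so that the difference was not tested. With the GC trend removed the 3′RR-deficient ratio was -0.44, and the spike-in ratios of its 2 libraries had an SD of 0.63. With 1 library per group, no sample could be compared with others of its group. The LPS ratios of Dnmt3b also differed in sign, -0.29 in Eμ-deficient against 0.24 in wt and 0.35 in 3′RR-deficient B-cells, with 0 inside each interval.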

How the results depend on the processing

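Of 14 settings for the LPS effect, all called 2 of the 9 genes higher. The count called lower, 3 as reported, was 0 with the length trend removed and 2 with no genotype term. It was 4 with the GC trend removed or 10 counts required in all libraries. When libraries or genotypes were left out, it ranged from 0 to 3. Leaving out the Eμ-deficient genotype gave 0, and leaving out the 3′RR-deficient genotype or its LPS library gave 1, Dnmt3a. Fewer libraries are then fitted. Scaled by the total count, 5 of the 9 genes in place of 3 were past 2-fold after LPS in wt. No setting called any of the 9 genes for a deletion, and fits to only the genotypes compared are those that leave out the other genotype. Values near 0 changed sign. The LPS effect on Uhrf2 was 0.0153 with no filter, 0.0406 with the length trend removed and -0.11 to 0.21 with libraries or genotypes left out, and that on Dnmt3b -0.0291 to 0.39. For the 3′RR deletion, leaving out gave -0.12 to 0.26 for Uhrf2, -0.0661 to 0.11 for Tet1 and -0.0568 to 0.0452 for Tet3, and GC trend removal 0.11 for Tet1 and -0.10 for Tet3. For the Eμ deletion, Uhrf2 was at -0.0499 with total count scaling, -0.0440 with no filter and -0.0332 with the GC trend removed. The cause of these changes was not tested. The genotype term pairs the resting and LPS library of each genotype. With 1 library per group, no pairing by replicate within a genotype was possible. Tet1 and Dnmt3b, with 11 to 135 counts per library, had the widest intervals. In the simulation, which changed far fewer genes than were called in the data, 32% of 2-fold LPS changes were recovered.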
